A study of Homo sapiens with 10 samples.

Results

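The ATF4 and serine synthesis response genes are 30 human genes chosen by name: ATF4, the factors that act with it, and genes known as its targets or as enzymes of serine, one-carbon, proline and related metabolism. All 30 were found by symbol among the 60623 gene identifiers of the count files, and 29 had enough reads to test. INHBE, a secreted activin subunit, held 0 to 5 reads per library and was not tested. ATF4 is a transcription factor whose protein is made mainly when stress kinases slow general translation, so that its mRNA level need not follow its activity. Together with CEBPG and related partners it switches on amino acid synthesis and uptake, among them the route by which PHGDH, PSAT1 and PSPH make serine and mitochondrial folate enzymes pass on its one-carbon unit. The route feeds nucleotide and glutathione synthesis in proliferating cells, the PHGDH gene is amplified in some melanomas, and MYC is known to act on several of the same enzyme genes.

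Messenger RNA was counted in A375, an established human melanoma line with an activating BRAF mutation, 72 h after transfection of small interfering RNA. Experiment 1 compared 4 libraries with PHF10 knockdown and 2 controls, and experiment 2 compared 2 libraries labelled MYC knockdown with 2 controls. PHF10 belongs to PBAF, a nucleosome remodelling complex. The protocol names a control siRNA whereas the controls' own siRNA label says untreated, and the word "total" in the titles of the PHF10 libraries is not explained. Nothing in the labels says that libraries of a group came from separate cultures, so p-values measure the spread between these libraries, which may be technical. In bulk RNA, fewer cells of a type and less RNA per cell cannot be told apart.

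Reads assigned to genes ranged from 20.5 M to 38.4 M per library. PHF10 stood at 16.1, 18.0, 15.1 and 15.7 CPM (counts scaled by library size) after its knockdown, against 40.1 and 36.6 CPM in the controls of experiment 1. Its log2 fold change was -1.24 (SE 0.10, by the quasi-likelihood test of edgeR with Benjamini-Hochberg adjustment over all genes, adjusted p = 0.00106). In experiment 2 PHF10 was at 124 and 119 CPM under the MYC label and 124 and 125 CPM in the controls, above every library of experiment 1. Under the MYC knockdown label, MYC itself stood at 16.7 and 13.3 CPM, against 15.0 and 26.5 CPM in those controls, so its mRNA did not separate those groups. MYC had 12.9, 9.69, 14.6 and 22.0 CPM after PHF10 knockdown, against 20.2 and 32.1 CPM in the controls of experiment 1, and did not pass there (log2 fold change -0.82, SE 0.33, edgeR adjusted p = 0.174). Each direction drawn from the libraries labelled MYC knockdown rests on that label. Of 10 melanocyte and melanoma markers, SOX10, MITF, S100B, S100A1 and CSPG4 averaged at least 10 CPM in every group, and MLANA, TYR and TYRP1 averaged under 1 CPM in every group. In experiment 1, PHF10 knockdown libraries 1 and 2 and control 1 had a mean log2 CPM of 37 interferon genes of 7.76, 7.46 and 8.09, and PHF10 knockdown libraries 3 and 4 and control 2 had 3.73, 4.96 and 4.83. For the members it touches most, values with a term for it in the fit or within each set of libraries are given. Each set holds only 1 control, so the spread of a control cannot be measured within it.

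Short promoter stretches are printed around the letters of known binding elements. The ATF4 and CEBP composite element was searched as TGATGNAA on both strands, in RefSeq windows of 300 bases (250 before to 50 after the start, GRCh38.p14) that matched 22 of the 30 genes. It was in the windows of 5 genes, ASNS, CEBPG, CHAC1, JDP2 and MTHFD1L, whereas 4.46% of all genes with a window and 3.62% of all windows held it. Each is shown 5′ to 3′ along the gene with 11 bases on either side and the match in capitals, and in CHAC1 the match is on the opposite strand.
ASNS (chr7:97872458-97872487, minus strand): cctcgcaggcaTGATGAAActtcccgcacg
CEBPG (chr19:33374060-33374089, plus strand): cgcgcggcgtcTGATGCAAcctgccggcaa
CHAC1 (chr15:40953251-40953280, plus strand): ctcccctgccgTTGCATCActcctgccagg
JDP2 (chr14:75427995-75428024, plus strand): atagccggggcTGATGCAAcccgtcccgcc
MTHFD1L (chr6:150866346-150866375, plus strand): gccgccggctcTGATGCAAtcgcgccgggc
The 5 genes span 4 roles: the regulators CEBPG and JDP2, the folate enzyme MTHFD1L, the amino acid enzyme ASNS and the stress effector CHAC1.

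The E-box CACGTG, to which MYC with MAX can bind, was in the windows of ALDH18A1, ATF4 and MTHFD1L, and in 8.77% of genes and 7.26% of windows overall. It is shown in the same way.
ALDH18A1 (chr10:95656831-95656858, minus strand): ggctggcccgcCACGTGgagcgctggct
ATF4 (chr22:39520466-39520493, plus strand): gaggagacggtCACGTGgtcgcggcgga
MTHFD1L (chr6:150866321-150866348, plus strand): acgcccggctcCACGTGcgcagccggcc
MTHFD1L, which makes formate from the folate-bound one-carbon unit, held both motifs, and its printed stretches overlap in the genome without the motifs overlapping. A match is a description of letters, not evidence of binding, and its absence says only that these letters are not in these windows.

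Per unit of annotated exon length, the members covered most of the range of expression. TPM divides reads by exon length and scales each library to the same total (computed here with GENCODE 29 exon lengths). The mean of the 4 group means in TPM was 346 for EIF4EBP1, the repressor of cap-dependent translation, and 282 for ATF4. It was 227 for DDIT4, 177 for PSAT1, 152 for ALDH18A1, 145 for CEBPB and 134 for SHMT2. EIF4EBP1 lay above 98.2% of all tested genes on this scale and ATF4 above 97.6%. In the middle stood MTHFD2 with 88.6 TPM, PHGDH with 41.3 TPM and PSPH with 28.6 TPM. The order of PSAT1 and PHGDH depends on the annotated exon bases, 2188 for PSAT1 and 9217 for PHGDH. In CPM, PHGDH and PSAT1 averaged 135 and 123 in the controls of experiment 1, and 137 and 139 in those of experiment 2. PSPH was the lowest of the 3 serine enzymes on both scales. At the low end were ALDH1L2 with 4.70 TPM, JDP2 with 0.795 TPM, CBS with 0.267 TPM and NUPR1 with 0.246 TPM. ASNS, the asparagine synthetase and a standard ATF4 target, had only 12 to 33 reads per library and 0.583 TPM. In GENCODE 29, 1985 of its 4455 exon bases are shared with a same-strand overlapping gene, and STAR leaves reads on shared bases uncounted, so this level is uncertain. That overlapping gene itself held 0 to 10 reads. CBS is likewise uncertain, since it has a near-identical copy that held 1 to 14 reads per library against 4 to 18 for CBS.

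After PHF10 knockdown, 2 members passed the test: CTH was higher and PHGDH was lower. The shares of all 18450 tested genes called were 2.75% higher and 3.58% lower, and 1 member of 29 in each direction is near that background. The median log2 fold change was -0.11 over the members and 0.02 over all genes. All 9 serine, folate and proline enzymes had a negative log2 fold change, from -0.85 to -0.06. So did 7 of the other 20 tested members and 8836 of all 18450 genes. This block joins the roles in which every member was negative in both knockdowns, so its contrast with the other members is no test. Without adjustment, 9 of 29 members had p under 0.05, as did 22.7% of all genes, and 5 of the 9 were among those enzymes. Of the melanoma markers, S100B fell in the same comparison (-1.11, SE 0.18, edgeR adjusted p = 0.00924), and 6 of the 8 tested had a negative log2 fold change, with a median of -0.42. The markers' summed level, mostly CSPG4, was 1619 to 3392 CPM after PHF10 knockdown and 1746 and 1907 CPM in the controls. The sum of 12 markers of other cell types was 26.8 to 51.3 CPM after PHF10 knockdown and 36.7 and 29.8 CPM in the controls, with 0 of the 9 tested called, and the part of either list in the members' levels was not tested.

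PHGDH, the dehydrogenase that opens serine synthesis, had 63.0, 59.5, 94.2 and 82.2 CPM in the PHF10 knockdown libraries, against 112 and 157 CPM in the controls of experiment 1. All 4 knockdown libraries lay below both controls. The log2 fold change was -0.85 (SE 0.20, edgeR adjusted p = 0.0341), with means of 74.7 ± 16.4 CPM (SD, n = 4) and 135 ± 31.8 CPM (SD, n = 2). Within the libraries of high interferon level the fold was -0.87 and within the others -0.83, on log2(CPM + 0.1), each over 1 control library. With the interferon term the adjusted p was 0.00156, but PHGDH missed the threshold when experiment 1 was fitted alone (adjusted p = 0.135) and without control 2 of experiment 1, where the log2 fold change was -0.59 (adjusted p = 0.297). It also missed it without knockdown library 2 (adjusted p = 0.0537), control 1 (0.0646) or any 1 library of experiment 2 (0.0656 to 0.0691).

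PSAT1, the aminotransferase of the next step, had 75.0, 54.8, 78.1 and 104 CPM after PHF10 knockdown, against 108 and 137 CPM in the controls. The groups did not overlap, but the highest knockdown library came within 4 CPM of the lower control. Its log2 fold change of -0.65 (SE 0.21, edgeR adjusted p = 0.101) missed the threshold and passed with the interferon term (adjusted p = 0.0254). PSPH, the phosphatase that completes the route, had 20.4, 15.7, 17.3 and 20.7 CPM after PHF10 knockdown, against 23.8 and 24.0 CPM in the controls. Again every knockdown library was below both controls, with its log2 fold change at -0.37 (SE 0.13, adjusted p = 0.129).

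**Figure D1:**
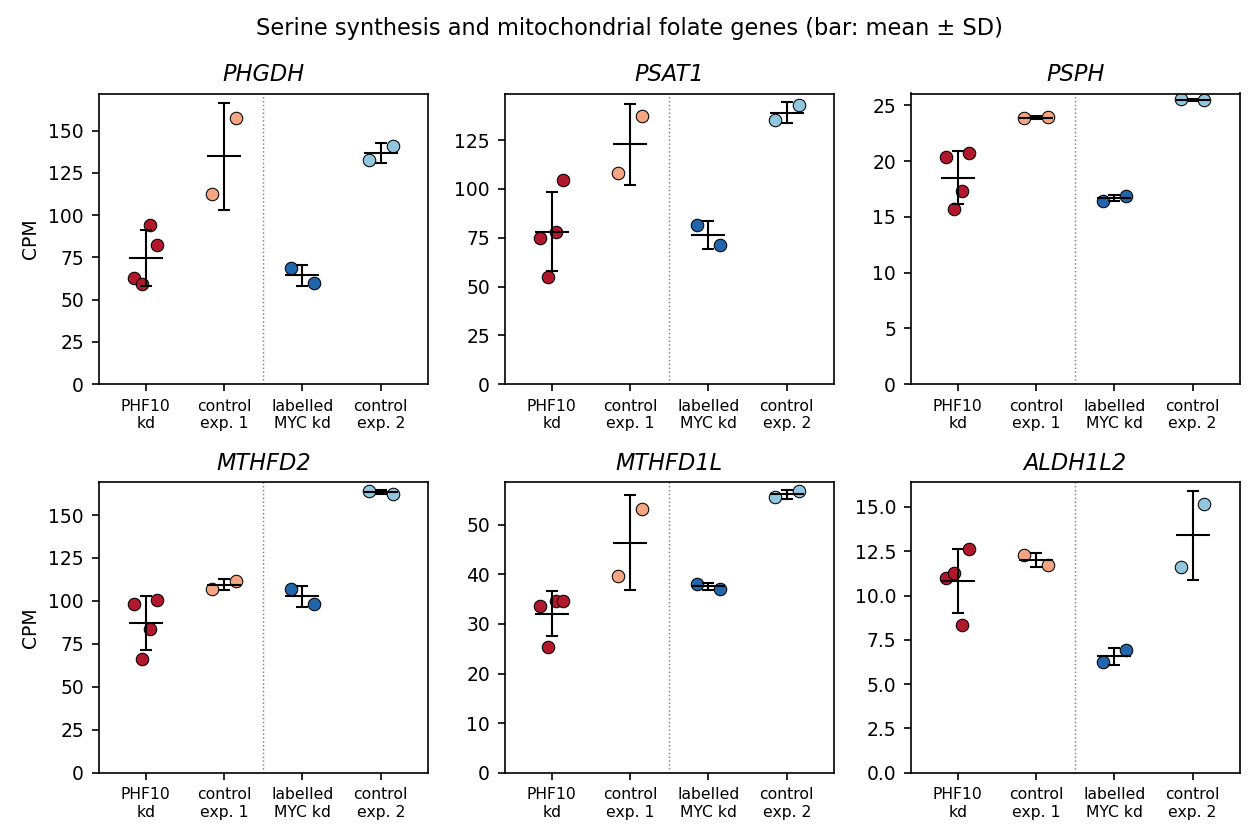
CPM per library (y axis, from 0) of 3 serine synthesis genes and 3 mitochondrial folate genes in the 4 groups, with points for libraries and bars for the mean ± SD. PHGDH lay between 59.5 and 94.2 CPM after PHF10 knockdown, against 112 and 157 CPM in the controls, and at 68.9 and 59.9 CPM under the MYC label, against 133 and 141 CPM in theirs.

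Among the mitochondrial folate enzymes, MTHFD1L had 33.5, 25.4, 34.7 and 34.7 CPM after PHF10 knockdown, against 39.7 and 53.2 CPM in the controls. The groups did not overlap, with its log2 fold change at -0.53 (SE 0.15, edgeR adjusted p = 0.0736). MTHFD2, the dehydrogenase and cyclohydrolase of the same chain, had 98.1, 66.4, 83.5 and 100.5 CPM after knockdown, against 107 and 112 CPM in controls (log2 fold change -0.33, SE 0.16, adjusted p = 0.248). SHMT2, which splits serine to load the one-carbon unit, overlapped between the groups: 118, 122, 198 and 183 CPM after PHF10 knockdown and 128 and 196 CPM in controls. The low values of SHMT2 were those of the 3 libraries with high interferon level, and its fold was -0.09 within these and -0.04 within the others on log2(CPM + 0.1). ALDH1L2, which oxidises formyl folate, differed by -0.16 (SE 0.18, adjusted p = 0.674).

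Of the proline enzymes, PYCR1 was at 21.9, 24.5, 24.8 and 23.7 CPM after PHF10 knockdown and 27.3 and 35.2 CPM in controls, without overlap (log2 fold change -0.40, SE 0.12, edgeR adjusted p = 0.0873). ALDH18A1, which makes the proline precursor, varied more within the knockdown group than between groups, with 161, 85.7, 102 and 218 CPM against 169 and 232 CPM. With a term for the interferon level, 5 members fell (PHGDH, PSAT1, MTHFD1L, PYCR1 and GPT2, an alanine transaminase of mitochondria) and CTH rose, where 7.56% of all genes fell and 5.82% rose. Fitted on experiment 1 alone, 0 members passed, as did 0.129% of genes higher and 0.151% lower, and DESeq2 called 1 member higher and 5 lower (5.47% and 5.92% of all genes).

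CTH, cystathionine gamma-lyase, which makes cysteine in transsulfuration, had 13.7, 17.2, 10.4 and 12.6 CPM after PHF10 knockdown, against 6.59 and 5.62 CPM in the controls. All 4 knockdown libraries exceeded both controls and all 4 libraries of experiment 2. Its log2 fold change was 1.14 (SE 0.21, edgeR adjusted p = 0.0152), and it was 1.21 within the libraries of high interferon level and 1.02 within the others. It missed the threshold without control 1 (adjusted p = 0.0808) or control 2 (adjusted p = 0.143) of experiment 1, and with experiment 1 fitted alone (adjusted p = 0.0941). CBS, the enzyme before it in the pathway, had its log2 fold change at -0.61 (SE 0.48, adjusted p = 0.495) on few reads.

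DDIT4, an inhibitor of mTORC1 signalling, was at 194, 140.2, 162 and 217 CPM after PHF10 knockdown, against 127 and 133 CPM in controls. It did not overlap between the groups, with its log2 fold change at 0.45 (SE 0.16, edgeR adjusted p = 0.137). CTH and DDIT4 were the members with every knockdown library above both controls, and 7 members had every knockdown library below them. Of all genes, 13.4% were higher and 13.7% lower without overlap in this comparison. STC2, a secreted glycoprotein induced by stress in the endoplasmic reticulum, had 13.01, 25.1, 20.4 and 16.9 CPM after PHF10 knockdown and 13.1 and 11.6 CPM in controls (log2 fold change 0.61, SE 0.23, adjusted p = 0.144).

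None of the 8 regulators passed the test between these groups. ATF4 mRNA was at 178, 136, 173 and 186 CPM after PHF10 knockdown, against 167 and 169 CPM in the controls (log2 fold change 0.00, SE 0.13, edgeR adjusted p = 0.995). Library 2 was the lowest, and the controls lay inside the knockdown range. TRIB3, a pseudokinase induced by ATF4 with DDIT3, had 52.4, 49.3, 53.3 and 54.7 CPM against 48.7 and 51.0 CPM in controls (log2 fold change 0.07, SE 0.09, adjusted p = 0.700). Of the 8 regulators 0 had an unadjusted p under 0.05, and DESeq2 and limma-voom called 0. Their median log2 fold change was 0.04.

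Some members differed more between libraries of 1 group than between groups. DDIT3, the factor CHOP of late stress responses, had 45.3, 36.3, 17.3 and 18.2 CPM after PHF10 knockdown, against 35.5 and 14.7 CPM in the controls. CHAC1, which degrades glutathione, had 10.7, 3.81, 2.04 and 3.30 CPM after PHF10 knockdown and 6.87 and 2.16 CPM in controls. VLDLR, a lipoprotein receptor, had 18.2, 32.8, 13.5 and 10.6 CPM after PHF10 knockdown and 33.2 and 13.7 CPM in controls. For each of the 3 genes the higher values belonged to the 3 libraries with high interferon level, which come from both groups. Within the libraries of high interferon level and within the others, the knockdown fold on log2(CPM + 0.1) was 0.20 and 0.27 for DDIT3, 0.08 and 0.29 for CHAC1, and -0.38 and -0.19 for VLDLR. SESN2, a leucine sensor of the mTORC1 pathway, showed a smaller spread, with 53.4, 43.5, 36.7 and 34.3 CPM after PHF10 knockdown and 37.9 and 31.6 CPM in controls. The same 3 libraries also had more reads on no annotated exon of the counted strand. Their share was 12.1% to 13.8%, against 9.93% to 10.6% in the other 3 of experiment 1. The part of this share or of the interferon level in these levels was not tested.

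**Figure D2:**
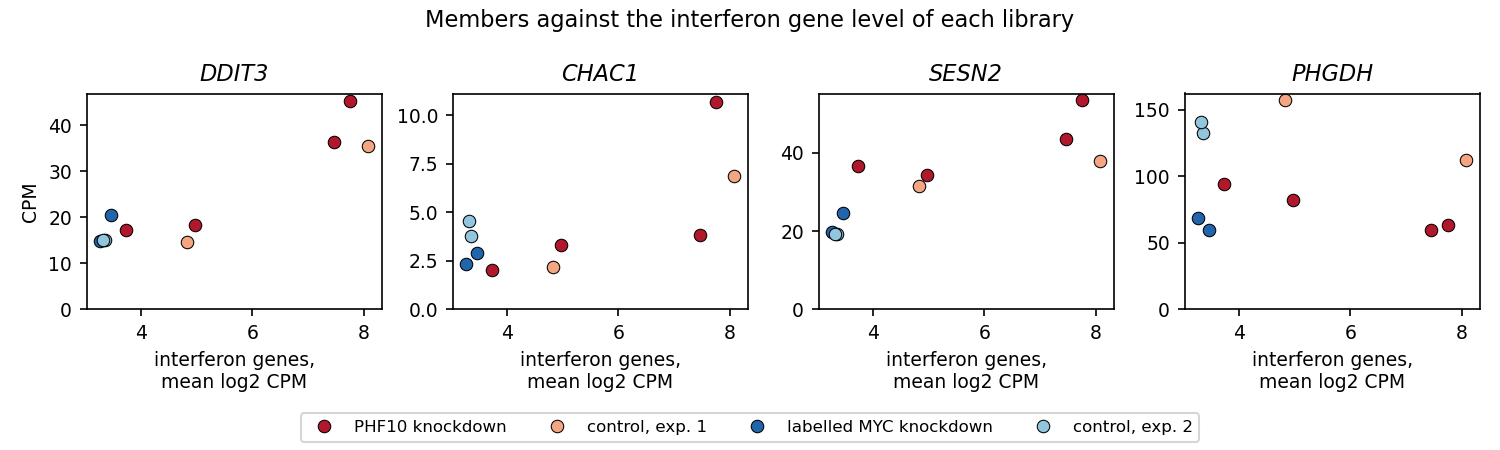
CPM per library (y axis, from 0) of DDIT3, CHAC1, SESN2 and PHGDH against the mean log2 CPM of 37 interferon genes in the same library (x axis), with 1 point per library and colours for the 4 groups. DDIT3 was above 35 CPM in the 3 libraries with an interferon level of 7.46 to 8.09 and below 21 CPM in the other 7.

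In the libraries labelled MYC knockdown, 25 of 29 tested members had a negative log2 fold change over the controls of experiment 2, with a median of -0.29 against -0.01 over all genes. The largest differences were those of PHGDH, ALDH1L2 and PSAT1, which were lower, and VLDLR, which was higher. In the fit of all 10 libraries 0 members passed and 8 of 29 had an unadjusted p under 0.05, as did 13.2% of all genes. DESeq2 called 6 lower, with 1.92% of all genes, and limma-voom called 0. That fit called 0.282% of all genes higher and 0.211% lower. It shares 1 estimate of the spread, a biological coefficient of variation of 21.4%. Experiment 1 alone gave 26.7%, and the 4 libraries of experiment 2 alone gave 3.39%. In the fit of experiment 2 alone, 3 members were higher and 17 lower of the 28 tested, where 21.9% of all genes were higher and 22.6% lower.

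PHGDH had 68.9 and 59.9 CPM under the MYC label, against 133 and 141 CPM in their controls. The groups were far apart, with its log2 fold change at -1.09 (SE 0.24, edgeR adjusted p = 0.0788), and -1.07 in the fit of experiment 2 alone (adjusted p = 2.38e-17). PSAT1 had 81.4 and 71.3 CPM under the MYC label, against 135 and 143 CPM in controls (log2 fold change -0.86, SE 0.25, adjusted p = 0.164, alone 3.83e-16). PSPH had 16.5 and 16.9 CPM against 25.5 and 25.4 CPM (log2 fold change -0.61, SE 0.15, adjusted p = 0.117, alone 2.16e-09). All 3 serine enzymes fell in the fit of experiment 2 alone, where 22.6% of all genes did. Their order by size of the fold change was PHGDH, PSAT1, PSPH, which was also their order after PHF10 knockdown.

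ALDH1L2 had 6.23 and 6.90 CPM under the MYC label, against 11.6 and 15.2 CPM in controls, with its log2 fold change at -1.03 (SE 0.21, edgeR adjusted p = 0.0702). MTHFD2 had 107 and 98.2 CPM against 164 and 162 CPM (-0.67, SE 0.18, adjusted p = 0.147), and MTHFD1L 38.1 and 37.1 CPM against 55.5 and 56.8 CPM (-0.58, SE 0.18, adjusted p = 0.194). SHMT2 had 168 and 172 CPM against 208 and 211 CPM (-0.30, SE 0.28, adjusted p = 0.721). None of the 4 folate enzymes overlapped between the groups, where 36.0% of all genes lay below without overlap. All 4 fell in the fit of experiment 2 alone, where 22.6% of all genes did. Of the proline enzymes ALDH18A1 also fell there, with 125 and 119 CPM against 152 and 151 CPM, and PYCR1 did not pass (alone adjusted p = 0.121).

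ATF4 mRNA was at 196 and 195 CPM under the MYC label, against 222 and 232 CPM in the controls of experiment 2. The difference was small, with its log2 fold change at -0.21 (SE 0.15, edgeR adjusted p = 0.623), and passed in the fit of experiment 2 alone (adjusted p = 8.6e-05). TRIB3 had 49.6 and 46.7 CPM against 71.6 and 67.7 CPM (log2 fold change -0.53, SE 0.11, adjusted p = 0.0662, alone 9e-12). CEBPB, ATF5 and JDP2 also fell in that fit. There 5 of the 7 regulators it tested were lower and 0 higher, where 22.6% of all genes were lower and 21.9% higher. DDIT3 had 14.8 and 20.5 CPM against 15.0 and 15.1 CPM, and the groups overlapped.

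Not every member was lower. KLHL24, a ubiquitin ligase adaptor, had 52.1 and 56.1 CPM under the MYC label and 42.8 and 39.7 CPM in controls (log2 fold change 0.39, SE 0.15, edgeR adjusted p = 0.282, alone 7.97e-08). VLDLR had 32.9 and 39.4 CPM against 22.3 and 21.2 CPM (0.73, SE 0.51, adjusted p = 0.608, alone 1.27e-10), and SESN2 19.8 and 24.7 CPM against 19.2 and 19.3 CPM (0.21, SE 0.21, adjusted p = 0.762, alone 0.0435). These were the 3 members that rose in the fit of experiment 2 alone, where 21.9% of all genes did. STC2 fell in that fit, with 25.7 and 28.3 CPM against 36.0 and 35.0 CPM, and CTH did not differ detectably, with 6.71 and 6.08 CPM against 6.51 and 7.67 CPM (alone adjusted p = 0.430). Altogether 3 members were above and 21 below their controls without overlap, where 33.6% of all genes were above and 36.0% below. The summed level of 10 melanoma markers was 2734 and 2831 CPM under the MYC label, against 1964 and 1953 CPM in controls. Most of that sum is CSPG4, with 1727 and 1811 CPM against 1062 and 1050 CPM. In the fit of experiment 2 alone CSPG4, SOX10 and S100A1 rose, and MITF, S100B and PMEL fell. The summed level of 12 markers of other cell types was 16.6 and 20.1 CPM under the MYC label, against 26.0 and 25.5 CPM in controls, with PTPRC, CD3E, CD14, CDH5 and EPCAM under 1 CPM on average in every group. Of these markers KRT14 fell in the fit of all libraries (-1.77, SE 0.28, edgeR adjusted p = 0.0343), and 3 lay above and 5 below the controls without overlap. The part of either list in the members' levels was not tested.

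**Figure D3:**
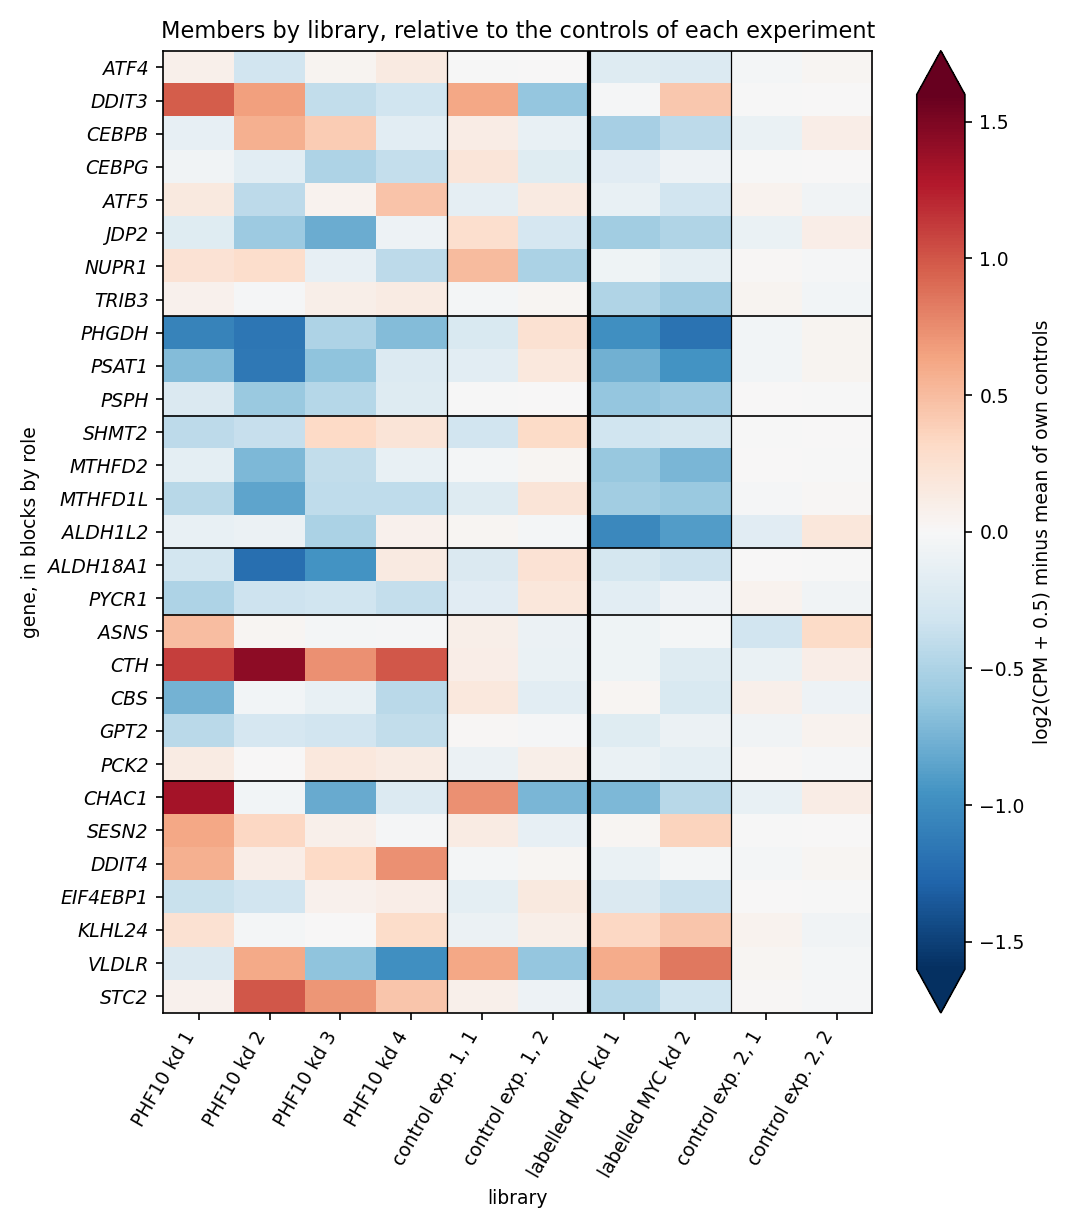
Colour gives log2(CPM + 0.5) minus the mean of the controls of the same experiment, for 29 tested members (rows, in blocks by role) in the 10 libraries (columns). The blocks of serine, folate and proline enzymes are mostly blue in both knockdowns, CTH is red after PHF10 knockdown, and DDIT3, CHAC1 and VLDLR are red in libraries of both groups of experiment 1.

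Across both knockdowns, 18 of 29 members (62.1%) had log2 fold changes of the same sign, close to the 61.3% of all genes. By direction, 15 members (51.7%) were negative in both, as were 30.2% of all genes, and 3 were positive in both (10.3%, against 31.1% of all genes). All 9 serine, folate and proline enzymes were negative in both, which follows from how that block was formed. It joins the roles that were negative in both throughout, and no other role was. PSAT1, PHGDH, PSPH, MTHFD2, MTHFD1L, PYCR1 and GPT2 lay below their own controls without overlap in both experiments, 7 of 29 members, where 8.18% of all genes did. No test was made of these shares. Positive after PHF10 knockdown and negative in the libraries labelled MYC knockdown were 10 members (34.5%, against 20.9% of all genes), among them CTH, STC2, TRIB3, CEBPB and CHAC1. Signs of folds near 0 depended on the setting. In some alternative, 9 of 29 members changed sign after PHF10 knockdown, and 3 did under the MYC label. ATF4 changed sign after PHF10 knockdown in 12 of 20 alternatives. The CHAC1 log2 fold change of 0.13 there became -0.56 to 1.18 with 1 library left out. VLDLR alone was negative after PHF10 knockdown and positive under the MYC label.

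**Figure D4:**
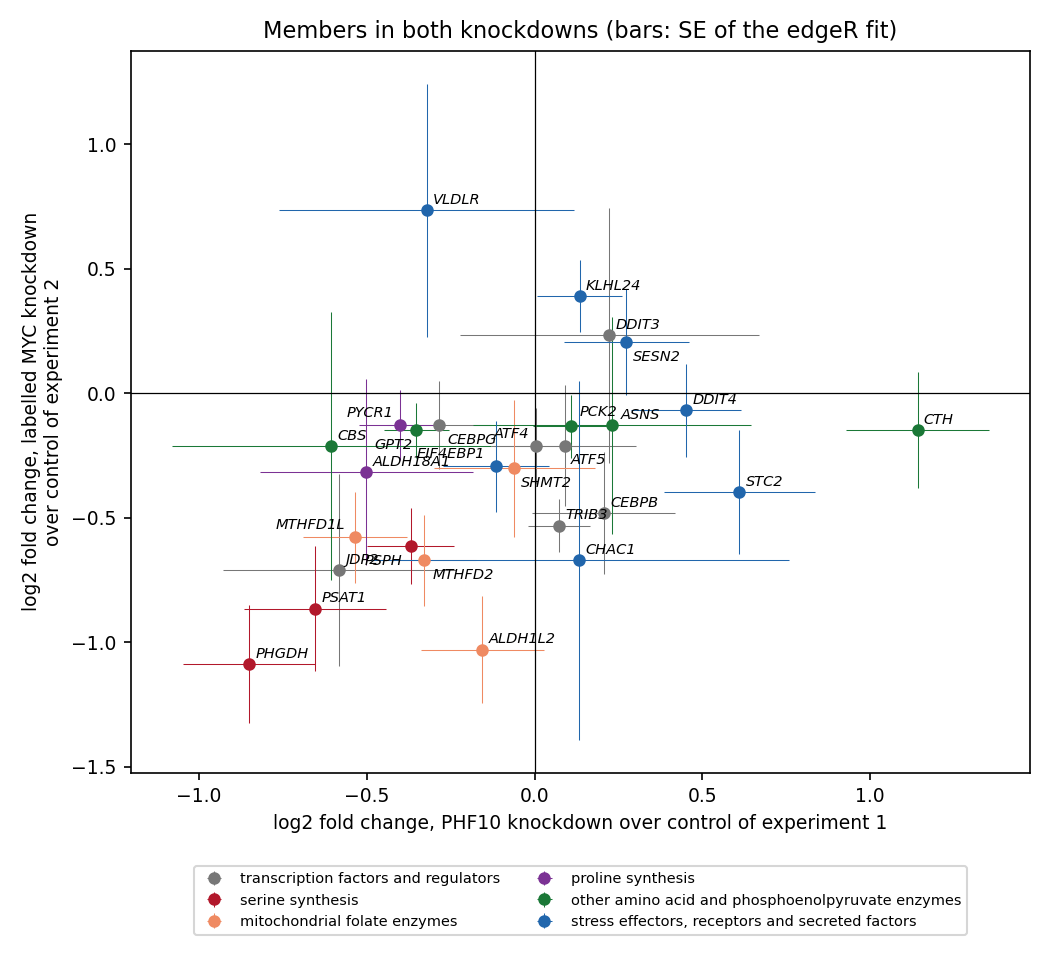
Log2 fold change of 28 members in PHF10 knockdown over its controls (x axis) and in the libraries labelled MYC knockdown over theirs (y axis), with bars for the SE and colours for roles; NUPR1, on few reads, is left out. PHGDH and PSAT1 are far to the lower left at -0.85 and -0.65 on the x axis, and CTH is far to the right at 1.14.

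The difference between both knockdown effects was tested for each gene. In the fit of all libraries 0 members passed, with 0.26% of all genes called higher and 0.125% lower, and 4 of 29 members had an unadjusted p under 0.05, near the 11.7% of all genes. DESeq2 called 2 members and 1.92% of all genes higher, and limma-voom called 0 members. The 4 were CTH, with a difference of 1.29 in log2 fold change (SE 0.31, edgeR adjusted p = 0.109), STC2 with 1.01 (SE 0.33, adjusted p = 0.254), ALDH1L2 with 0.87 (SE 0.28, adjusted p = 0.241) and TRIB3 with 0.60 (SE 0.14, adjusted p = 0.102). With the interferon term, CTH (adjusted p = 0.0349) and TRIB3 (adjusted p = 0.0353) passed, with 1.54% of all genes higher. For PHGDH the difference was 0.24 (SE 0.31, adjusted p = 0.872) and for PSAT1 0.21 (SE 0.33, adjusted p = 0.899), which does not show that the effects were equal.

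**Figure D5:**
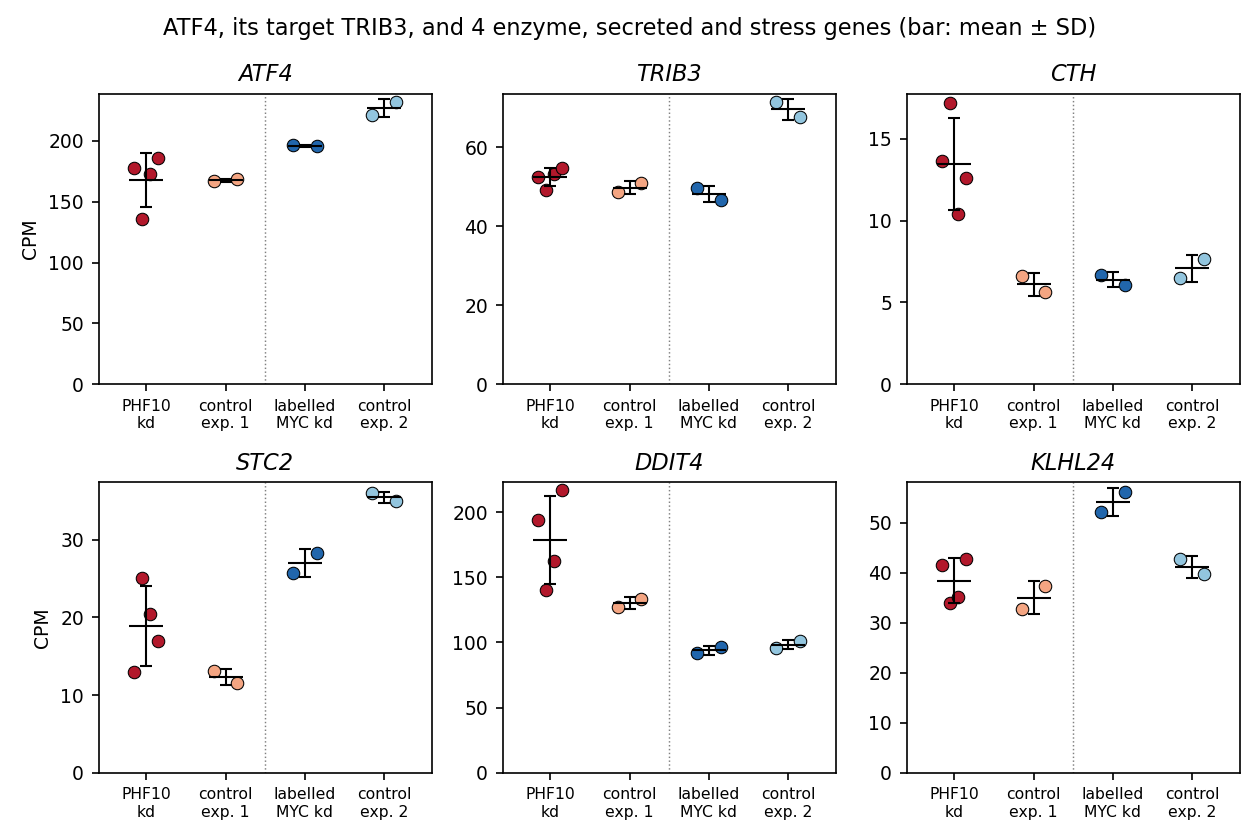
CPM per library (y axis, from 0) of ATF4, TRIB3, CTH, STC2, DDIT4 and KLHL24 in the 4 groups, with points for libraries and bars for the mean ± SD. TRIB3 was at 49.6 and 46.7 CPM under the MYC label against 71.6 and 67.7 CPM in its controls, and CTH was above 10 CPM only after PHF10 knockdown.

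The controls of both experiments differed in some members, so levels were set against each experiment's own controls. Control of experiment 2 over control of experiment 1 was higher for STC2, with 36.0 and 35.0 CPM against 13.1 and 11.6 CPM (log2 fold change 1.52, SE 0.26, edgeR adjusted p = 0.00547). It was higher for CEBPG, the ATF4 partner (0.70, SE 0.18, adjusted p = 0.0298), and TRIB3 (0.48, SE 0.11, adjusted p = 0.018), and lower for SESN2 (-0.85, SE 0.21, adjusted p = 0.0289). Of all genes, 8.05% were higher and 6.6% lower in this comparison. With upper-quartile scaling the split over all genes was 1028 higher and 1690 lower, against 1485 and 1217 with the scaling used here, and CEBPG missed the threshold (adjusted p = 0.063). TRIB3 and SESN2 missed the threshold without any 1 of the 4 controls (adjusted p of 0.0596 to 0.151 and 0.0577 to 0.167), and CEBPG without control 2 of experiment 1 (0.143) or any 1 library of experiment 2 (0.055 to 0.151). With a replicate block CEBPG (0.0861) and TRIB3 (0.0658) missed it, as did TRIB3 with no filter on low counts (0.068). PHGDH and PSAT1 did not pass between the controls (0.02, SE 0.23, and 0.18, SE 0.25).

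Genes of the same pathways outside the list were counted in 8 further lists. Of 12 tested amino acid transporters, 3 rose after PHF10 knockdown and 0 fell, where 2.75% of all genes rose and 3.58% fell. SLC7A5, the large neutral amino acid transporter, had 812, 923, 767 and 882 CPM after PHF10 knockdown, against 294 and 326 CPM in controls (log2 fold change 1.45, SE 0.15, edgeR adjusted p = 0.00212). The libraries labelled MYC knockdown had 543 and 449 CPM of SLC7A5, against 840.0 and 889 CPM in their controls. Under that label 0 of the 12 transporters passed in the fit of all libraries, with 0.282% of tested genes higher and 0.211% lower. DESeq2 called 5 transporters lower, with 1.92% of tested genes, and limma-voom called 2 lower. The fit of experiment 2 alone called 3 higher and 7 lower, with 21.9% and 22.6% of tested genes. SLC3A2, the partner chain of SLC7A5, rose by 0.86 (SE 0.11, edgeR adjusted p = 0.00411) on the log2 scale after PHF10 knockdown. The cystine transporter SLC7A11 rose there by 0.92 (SE 0.10, adjusted p = 0.00257). The difference between the knockdown effects passed for SLC7A5, at 2.25 (SE 0.22, adjusted p = 0.00644), and SLC3A2, at 1.28 (SE 0.17, adjusted p = 0.0221).

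Of 20 aminoacyl-tRNA synthetases, many of them ATF4 targets, 0 passed after PHF10 knockdown (DESeq2 called 1 lower, and 5.92% of all genes). Without adjustment 1 had p under 0.05, as did 22.7% of all genes. Under the MYC label 0 passed in the fit of all libraries (DESeq2 called 2 lower, and 1.92% of all genes). There 6 had an unadjusted p under 0.05, as did 13.2% of all genes. In the fit of experiment 2 alone 18 fell and 1 rose, where 22.6% of all genes fell and 21.9% rose. Of 15 other folate and one-carbon enzymes, only MTHFD2L passed after PHF10 knockdown (0.87, SE 0.14, edgeR adjusted p = 0.0089), and it rose where its paralog MTHFD2 had a negative fold change. In this list 10 log2 fold changes were negative, and 5 genes had an unadjusted p under 0.05, as did 22.7% of all genes. DESeq2 called 1 higher and 3 lower (5.47% and 5.92% of all genes). The fit with the interferon term called 1 higher and 4 lower (5.82% and 7.56%). Of 16 genes of the eIF2 kinases, phosphatases and eIF2B, which lie upstream of ATF4, EIF2AK4, the kinase GCN2, fell after PHF10 knockdown (-0.41, SE 0.10, adjusted p = 0.0408). Of 16 genes of the other endoplasmic reticulum stress branches, 3 fell and 0 rose: MANF, SDF2L1 and PDIA4, with log2 fold changes of -0.71, -0.77 and -0.56. Of 15 other stress factors, the antioxidant regulator NFE2L2 (-0.71, SE 0.09, adjusted p = 0.00352) and BATF3 (-1.37, SE 0.30, adjusted p = 0.0266) fell. Beside these counts, 3.58% of all genes fell and 2.75% rose after PHF10 knockdown. None passed among 13 other proline, glutamate, aspartate and methionine enzymes (2 with an unadjusted p under 0.05, DESeq2 0) or 6 genes of glutathione synthesis (1 with an unadjusted p under 0.05, 1 lower by DESeq2) after PHF10 knockdown. With 1 library left out, the transporters called after PHF10 knockdown numbered 3 each time, the eIF2 genes 0 to 2, the folate enzymes 0 to 2, the endoplasmic reticulum genes 0 to 5 and the other stress factors 1 to 2. EIF2AK4 was the 1 call of its list, and that list had 0 calls without any 1 library of experiment 2, either control of experiment 1 or PHF10 knockdown library 1 or 4. Without control 2 of experiment 1, 0 eIF2, folate and endoplasmic reticulum genes and 1 of the other stress factors passed, and without control 1, 0 eIF2 and folate genes, 2 endoplasmic reticulum genes and 1 stress factor. Fitted on experiment 1 alone, SLC7A5 passed (edgeR adjusted p = 0.0396) and 0 genes of the other 7 lists did.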

How the data were processed

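The deposited counts are whole reads per Ensembl gene. The submitters' processing notes name cutadapt, STAR and GRCh38.p13; tool versions and the annotation were not given in those sources. The libraries were poly(A)-selected and directional, per the labels' protocols. The opposite-strand count column was used; the same-strand column held 5.27% to 5.55% of stranded gene reads. Summary lines (19.1% to 23.6% of reads) stayed out of library sizes and tests.

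The fit used edgeR 4.0.16 under R 4.3.3, robust quasi-likelihood, TMM factors and filterByExpr, with 4 group means over all 10 libraries (6 residual degrees of freedom). It tested 18450 genes, called at an adjusted p under 0.05. SE is the fold change over the root of F. Log2 fold changes of 2 libraries per group carry only the precision such numbers give. No 2 libraries held identical counts. Alternatives were DESeq2 1.42.0, limma-voom (limma 3.58.1), RLE and upper-quartile factors, no filter, the unstranded column, a filter of 1 CPM in 4 libraries, a replicate block, each experiment alone, a term for the interferon level and each library left out.

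Members and lists were chosen with earlier results of these data known, so no list gets a test of its own. Members called in any knockdown test and ATF4, DDIT3, PHGDH, PSAT1 and ASNS were to be given by library; the other members given so were chosen after their values were seen. 1 marker gene is not reported here. Lists matched 210 symbols, 1 through an older name. Promoter windows are from RefSeq.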

Additional observations from a re-analysis of the deposited data

Results flagged for a closer look

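In the PHF10 knockdown group, 1 library stood apart from the other 3 in 2 of the 30 members examined. For ASNS, library 1 was high, and its gap to the nearest library was 0.89 of the group's range, above Dixon's critical value for 4 samples. The values were 1.03, 0.608, 0.556 and 0.564 CPM after PHF10 knockdown, against 0.650 and 0.518 CPM in the controls, on counts of 13 to 23 reads after knockdown. For MTHFD1L, library 2 was low, with a gap of 0.877 of the range, at 25.4 CPM against 33.5, 34.7 and 34.7 CPM in the other knockdown libraries. Chance flags about 1 in 20 such groups, so 2 of 30 is near that number.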

How the results depend on the processing

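No alternative reversed a called member. Counts of members called after PHF10 knockdown (2) were 2 with RLE and upper-quartile factors, limma-voom, the stricter filter and the unstranded column, 6 with DESeq2, with no filter and with the interferon term, 0 with the experiment alone, and 0 to 3 with 1 library left out. Over all genes (1169) they were 2102, 2372, 2467 and 50 in that order of moved settings, and 214 to 1387. Under the MYC label, members called (0) were 6 with DESeq2, 5 with no filter, 20 alone, 4 with the interferon term and 0 to 2 with 1 library left out. Over all genes (91) they were 708, 911, 7781, 558 and 0 to 231, and 211 with limma-voom. For the difference of effects, members (0) were 2 with DESeq2, 3 with no filter, 2 with the interferon term and 0 with any library left out, and all genes (71) were 618, 918, 489 and 1 to 140. Between controls, members (4) were 7 with no filter and 1 to 6 with 1 library left out, and all genes (2702) 554 to 3428. Members with the same sign in both knockdowns (18) numbered 16 to 20 with 1 library left out. The cause of these shifts was not tested.

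Deviations of same-numbered libraries from their group means correlated at 0.48 and -0.30 in experiment 1 and -0.03 in experiment 2. With 2 controls per experiment, each correlation with control 1 is the negative of that with control 2. These values therefore cannot tell whether replicate numbers pair the libraries. With a replicate block, members called were 2 after PHF10 knockdown, 0 under the MYC label, 0 for the difference and 2 between controls (STC2 and SESN2), and all genes 869, 0, 1 and 1424. Precision is limited by 2 libraries in 3 of the 4 groups, and ASNS, CBS, NUPR1 and JDP2 by low counts.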
